A study of Mus musculus with 24 samples.

Results

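Pyridostigmine in injured hearts was examined by comparing all expressed genes between 6 injured hearts given the drug (DTR_PYR) and 6 injured hearts given the vehicle PBS (DTR_PBS), which together are 12 of the 24 libraries of the series. Polyadenylated RNA of the ventricular apex was sequenced from male C57BL/6 mice aged 10 weeks, and the series title places the hearts at day 5. Both groups are labelled DTR, the usual short form of diphtheria toxin receptor, and both had the injury made with diphtheria toxin, so by their labels they differ in the drug alone. The labels do not name the cells that carried the receptor, nor the doses of toxin and drug. The other 12 hearts, labelled WT, had no toxin and were given PBS (WT_PBS) or pyridostigmine (WT_PYR), 6 each, and serve below as a background range.

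Pyridostigmine blocks acetylcholinesterase and butyrylcholinesterase, the enzymes that break down acetylcholine, and so prolongs the action of acetylcholine at its receptors. In the heart the vagus nerve releases acetylcholine onto muscarinic M2 receptors, which slow the beat through inhibitory G proteins and potassium channels. Macrophages and other immune cells also carry acetylcholine receptors, and acetylcholine is known to lower their release of inflammatory cytokines. An injured ventricle typically re-expresses fetal and stress genes, lowers its ion channel and fatty acid oxidation genes, takes in monocytes and neutrophils from the blood, and lays down matrix.

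The 6 DTR_PYR hearts did not form 1 cluster, and this bears on every mean below. On the first principal component of log2 CPM over the 24 libraries, which took 44.2% of the variance, DTR_PYR 1, 2 and 3 lay at 59.31, 104.29 and 41.03, inside the DTR_PBS span of 30.3 to 113.65. DTR_PYR 4 lay at -35.42, just inside the WT span of -57.19 to -35.09. DTR_PYR 5 and 6 lay at -25.58 and -20.89, outside that span but nearer to it than to the DTR_PBS span. CPM is the read count of a gene scaled to the size of its library, after TMM scaling, which gives each library a factor that evens out differences in composition. Hbegf, the mouse gene of heparin-binding EGF-like growth factor, was looked at after its values were seen, because the human form of this protein is the receptor of the toxin. The transgene itself has no row in the table, so the genotype was not checked. Hbegf stood at 171.7, 154.9 and 118 CPM in DTR_PYR 1 to 3 and at 19.3, 23.3 and 25.8 CPM in DTR_PYR 4 to 6, against 105.2 to 166.5 CPM in DTR_PBS and 18.2 to 26.8 CPM in WT. DTR_PYR 4, 5 and 6 thus had Hbegf inside the WT range, and the other 3 were in or just above the DTR_PBS range. Why 3 hearts stand apart was not tested, and the log2 differences and list medians below are given with and without them. In what follows, hearts 1 to 6 are DTR_PYR 1 to 6.

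The same division ran through the genes that separated injured from uninjured hearts. Among tested genes averaging 5 CPM or more over the 12 injured libraries, 1418 had all DTR_PBS libraries above all WT_PBS libraries and 1395 had them all below. The DTR_PYR libraries counted toward that filter and mean, but not toward the choice by range. Of the 1418 genes, hearts 1, 2 and 3 lay inside the DTR_PBS range for 85.1%, 53.5% and 62.5%, and hearts 4, 5 and 6 for 2.33%, 3.38% and 10.9%. Hearts 4, 5 and 6 lay inside the WT_PBS range for 77.2%, 71.3% and 52.96% of them, and between the ranges for 16.5%, 22.6% and 29.6%. The WT_PYR libraries lay inside the WT_PBS range for 48.9% to 80.8% of the same genes, a span that takes in all 3 of these hearts. They lay between the ranges for 6.35% to 21.4%, which hearts 5 and 6 exceeded. Both the 48.9% and the 21.4% belonged to WT_PYR 1. The other WT_PYR libraries lay inside for 67.8% to 80.8% and between for 6.35% to 11.5%. Heart 6 was below these others inside the range, and hearts 4, 5 and 6 were above them between the ranges. Of the 1395 genes that were lower in DTR_PBS, hearts 4, 5 and 6 lay between the ranges for 22.9%, 33.1% and 33.6%, against 9.39% to 14.8% for the WT_PYR libraries, so on these genes the 3 hearts were more often intermediate. They lay inside the WT_PBS range for 71.9%, 57.7% and 43.01% of the 1395 genes, against 49.96% to 81.1% for the WT_PYR libraries, so heart 6 was below each of these. The 49.96% was again WT_PYR 1, and heart 5 was below the other WT_PYR libraries, at 64.95% to 81.1%.

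**Figure D1:**
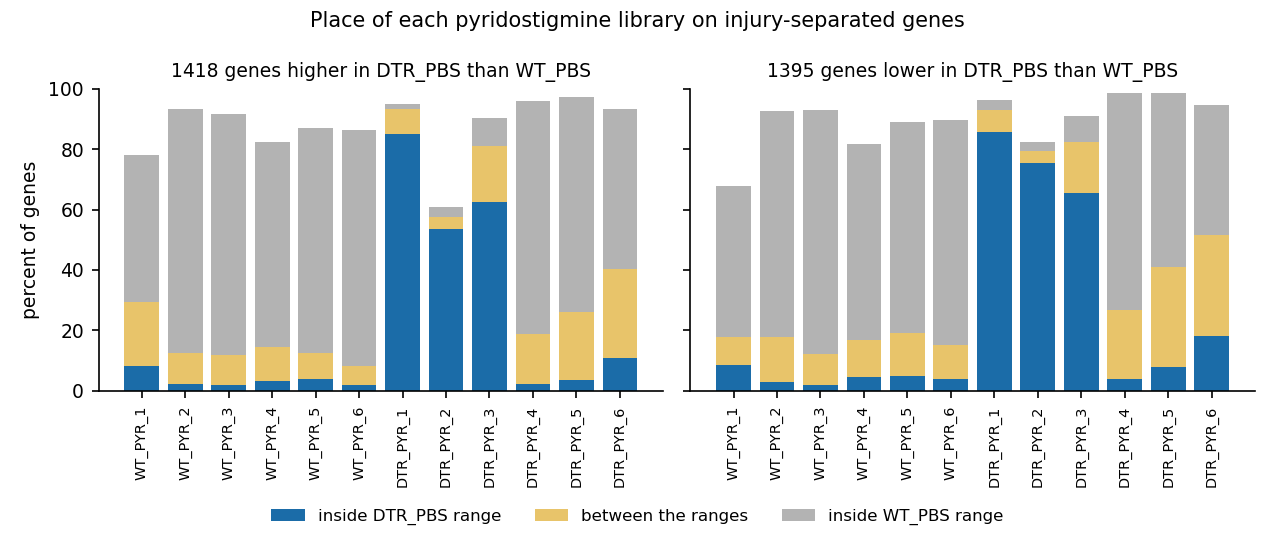
Bars give, for each library of the drug groups, the percent of genes (left, higher in DTR_PBS than in WT_PBS; right, lower) whose CPM lay inside the DTR_PBS range, between the ranges or inside the WT_PBS range; the rest lay beyond either range. DTR_PYR 1 to 3 were mostly inside the DTR_PBS range (53.5% to 85.1% on the left, 65.4% to 85.7% on the right). DTR_PYR 4 to 6 had their largest share inside the WT_PBS range (52.96% to 77.2% on the left, 43.01% to 71.9% on the right).

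Total counts ran from 1877914 to 36318026 reads in DTR_PBS and from 2387030 to 37842245 reads in DTR_PYR, with a difference of means well inside the spread (exact two-sided permutation test over 924 arrangements, p = 0.690, adjusted over 3 library measures 0.944). The share of counts from mitochondrially encoded genes was 10.2% ± 5.56 in DTR_PYR and 7.13% ± 1.60 in DTR_PBS (SD, n = 6; exact permutation p = 0.221, adjusted 0.662). It was 4.59% to 6.03% in hearts 1 to 3 and 12.7% to 17.9% in hearts 4 to 6, against 6.01% to 25.6% in WT. Animal tags ended in U in 2 libraries and in V in 4 libraries of each injured group. What the letters mean is not stated, and hearts 4, 5 and 6 all carried V.

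No gene passed the test. Of 14523 genes with more than 0.5 CPM in at least 6 of the 12 libraries, 0 (0%) had an adjusted p under 0.05 in the edgeR quasi-likelihood test, and the smallest adjusted p was 0.410. At an unadjusted p under 0.05 there were 958 genes with a higher mean in DTR_PYR (6.6%) and 783 with a lower one (5.39%), 11.99% of genes in all. DESeq2, with 2003 genes at an unadjusted p under 0.05, and limma voom, with 3137, also called 0 genes, with smallest adjusted p of 0.0623 and 0.113. Without hearts 4, 5 and 6 there were 704 of 13930 genes at an unadjusted p under 0.05 (5.05%), and the smallest adjusted p in edgeR was 0.894. Within the V libraries 3405 genes and within the U libraries 981 genes had an unadjusted p under 0.05, and edgeR called 0 in either. These p-values measure the spread between libraries, each taken as 1 animal because every animal tag is distinct.

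The median log2 difference over all tested genes, always DTR_PYR minus DTR_PBS here and below, was -0.0018. For the 10268 genes of at least 5 CPM the 95% interval of the difference reached a median of 0.47 to either side, so differences below that size were mostly not detectable. Larger ones were not called either, such as that of Eef2k at 0.71, because the adjustment over all genes asks for more. The intervals in parentheses below are the 95% intervals of single genes, not widened for the number of genes. Since no gene was called, values are given and no gene is said to have moved.

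Gene lists for the tissue and the drug, 39 in all, held 744 genes, of which 662 were tested, and 0 of them were called. The median log2 difference was above 0 in 17 lists and below 0 in 22, and without hearts 4, 5 and 6 it took the other sign in 14. Leaving out 1 library moved the median by more than 1.5 times, or turned its sign, in 26 of the lists, in 18 of them when heart 2 was left out and in 16 when DTR_PBS 1 was. A list score is the mean over its tested members of log2 CPM minus the WT_PBS mean. In 0 of the 39 lists did all DTR_PYR scores lie on 1 side of all DTR_PBS scores. Within the V libraries, where hearts 4 to 6 are, 2 list medians had another sign than over all libraries, and within the U libraries 9 had. As examples, the median was 0.79 within V and 0.30 within U for fatty acid oxidation, 0.76 and 0.49 for ion handling, -1.11 and -0.13 for matrix, -2.86 and -0.66 for recruited monocytes, and -1.75 and -0.55 for the cell cycle. In tissue RNA, fewer cells of a type and less RNA per cell cannot be told apart, which holds for every list named after a cell type.

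**Figure D2:**
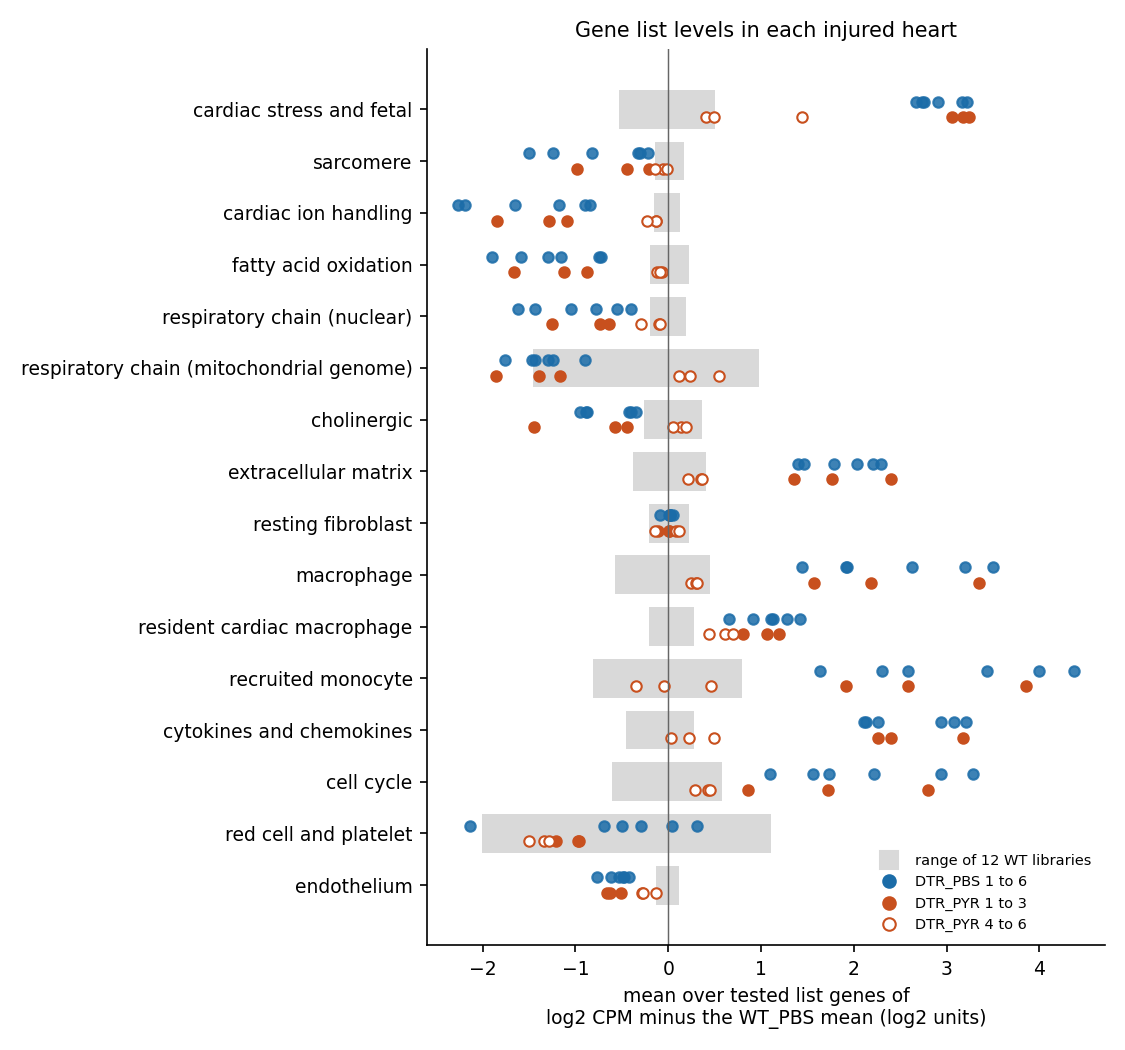
Each point is the score of 1 injured heart for 1 of 16 gene lists, in log2 units; grey bars span the 12 WT libraries. In most lists DTR_PYR 1 to 3 (filled orange) sit among the DTR_PBS points (blue) and DTR_PYR 4 to 6 (open) sit in or near the grey bar, as for macrophage genes, where these 2 sets of 3 hearts span 1.57 to 3.35 and 0.24 to 0.31.

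Cardiac stress and fetal genes divided the drug-treated hearts widely. Of the 19 genes, all tested, 16 had a negative and 3 a positive log2 difference, with a median of -0.46, and 0.25 without hearts 4 to 6. With 1 library left out the median ran from -0.76 without DTR_PYR 2 to -0.26 without DTR_PYR 4. Within the V libraries the median was -1.18 and within the U libraries 0.20. Nppb encodes B-type natriuretic peptide, a hormone of stretched heart muscle (ENSMUSG00000029019, GRCm38 chromosome 4, 147985788 to 147987205). Nppb lay at 2179, 2546 and 3423 CPM (lowest, median and highest) in DTR_PBS. In DTR_PYR it stood at 3182, 3133 and 2761 CPM in hearts 1 to 3 and at 331.9, 413.1 and 639.6 CPM in hearts 4 to 6. Hearts 1 to 3 were inside the DTR_PBS range and hearts 4 to 6 below it, with heart 4 inside the WT range of 140.9 to 380.2 CPM. The log2 difference of Nppb was -0.59 (95% interval -1.70 to 0.53), and 0.21 without the 3 hearts. Nppa, the atrial natriuretic peptide gene, stood at 686.2, 994.6 and 537.5 CPM in hearts 1 to 3 and at 100, 103.6 and 169.1 CPM in hearts 4 to 6, against 287.7 to 793.9 CPM in DTR_PBS. Its log2 difference of -0.24 (-1.34 to 0.85) became 0.54 without hearts 4 to 6.

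Other members of this list behaved less uniformly. Ankrd1, a stretch-responsive protein of the sarcomere and nucleus and the most abundant member by count, had a log2 difference of -0.21 (-1.12 to 0.69), and 0.43 without hearts 4 to 6. Xirp2, an actin-binding protein of the intercalated disc, had -0.97 (-1.77 to -0.16), and -0.40 without them. Cilp, a matrix protein of fibroblasts, had the smallest p of the list with -0.73 (-1.21 to -0.24), and -0.34 without them. Cilp stood at 15.8 to 33.1 CPM in DTR_PYR and at 6.02 to 13.8 CPM in WT, so all 6 drug-treated hearts, hearts 4 to 6 included, were above the uninjured range. Heart 6 differed from hearts 4 and 5 here: its stress score was 1.44, where theirs were 0.40 and 0.50 and the WT scores ended at 0.50. Myh7, the slow myosin heavy chain of the fetal mouse ventricle, stood at 334.3, 302.6 and 3611 CPM in hearts 4 to 6, at 792.5, 873.2 and 1057 CPM in hearts 1 to 3 and at 387.9 to 1100 CPM in DTR_PBS. Heart 6 thus held the highest Myh7 of the 12 injured hearts, and hearts 4 and 5 the lowest.

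Contractile genes had higher means under the drug, without a call. Of 23 sarcomere genes, 22 had a positive log2 difference, with a median of 0.42, 0.19 without hearts 4 to 6 and 0.27 without DTR_PBS 1. Myh6, the main adult myosin heavy chain of the mouse heart (chromosome 14, 54941981 to 54966927), lay at 4282, 14092 and 21215 CPM (lowest, median and highest) in DTR_PBS and at 8109, 22960 and 30439 CPM in DTR_PYR. The groups overlapped, with a log2 difference of 0.68 (-0.30 to 1.65) that was 0.19 without hearts 4 to 6, and 2 of the 6 DTR_PYR hearts were inside the WT range of 26193 to 37227 CPM. The 2 DTR_PBS hearts with the least Myh6 lay below every drug-treated heart. Myom2, a protein of the sarcomere M-band, had 0.66 (0.01 to 1.31), and 0.03 without hearts 4 to 6. Myh6 was thus present in every library of the labelled ventricle, and the atrial myosin light chain Myl7 reached at most 1.18 CPM in DTR_PYR and 0.886 CPM in DTR_PBS.

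Of 26 ion handling genes, 25 had a positive difference, 14 of them with an unadjusted p under 0.05 where 6.6% of all genes had one in that direction. The median was 0.73, and 0.10 without hearts 4 to 6. Kcnip2, the subunit that sets the transient outward potassium current (chromosome 19, 45791839 to 45816061), stood at 188.7, 134.5 and 124 CPM in hearts 4 to 6, at 36.2, 13.9 and 35.1 CPM in hearts 1 to 3 and at 5.59 to 51.8 CPM in DTR_PBS. The WT range began at 253.4 CPM, so hearts 4 to 6 lay between the ranges of injured and uninjured hearts. The log2 difference of Kcnip2 was 1.75 (0.43 to 3.07), and 0.12 without the 3 hearts. Kcnv2, a silent potassium channel subunit, had 2.60 (1.07 to 4.14), and 0.01 without them. Atp2a2, the calcium pump of the sarcoplasmic reticulum, had 0.66 (-0.07 to 1.39), and 0.15 without them. Gja5, connexin 40 of the conduction system and of arteries, was the 1 member with a negative difference, -0.52 (-0.93 to -0.11). Every DTR_PYR library, at 4.41 to 7.20 CPM, was below every DTR_PBS library, at 7.56 to 10.6 CPM, and the difference was -0.71 without hearts 4 to 6.

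**Figure D3:**
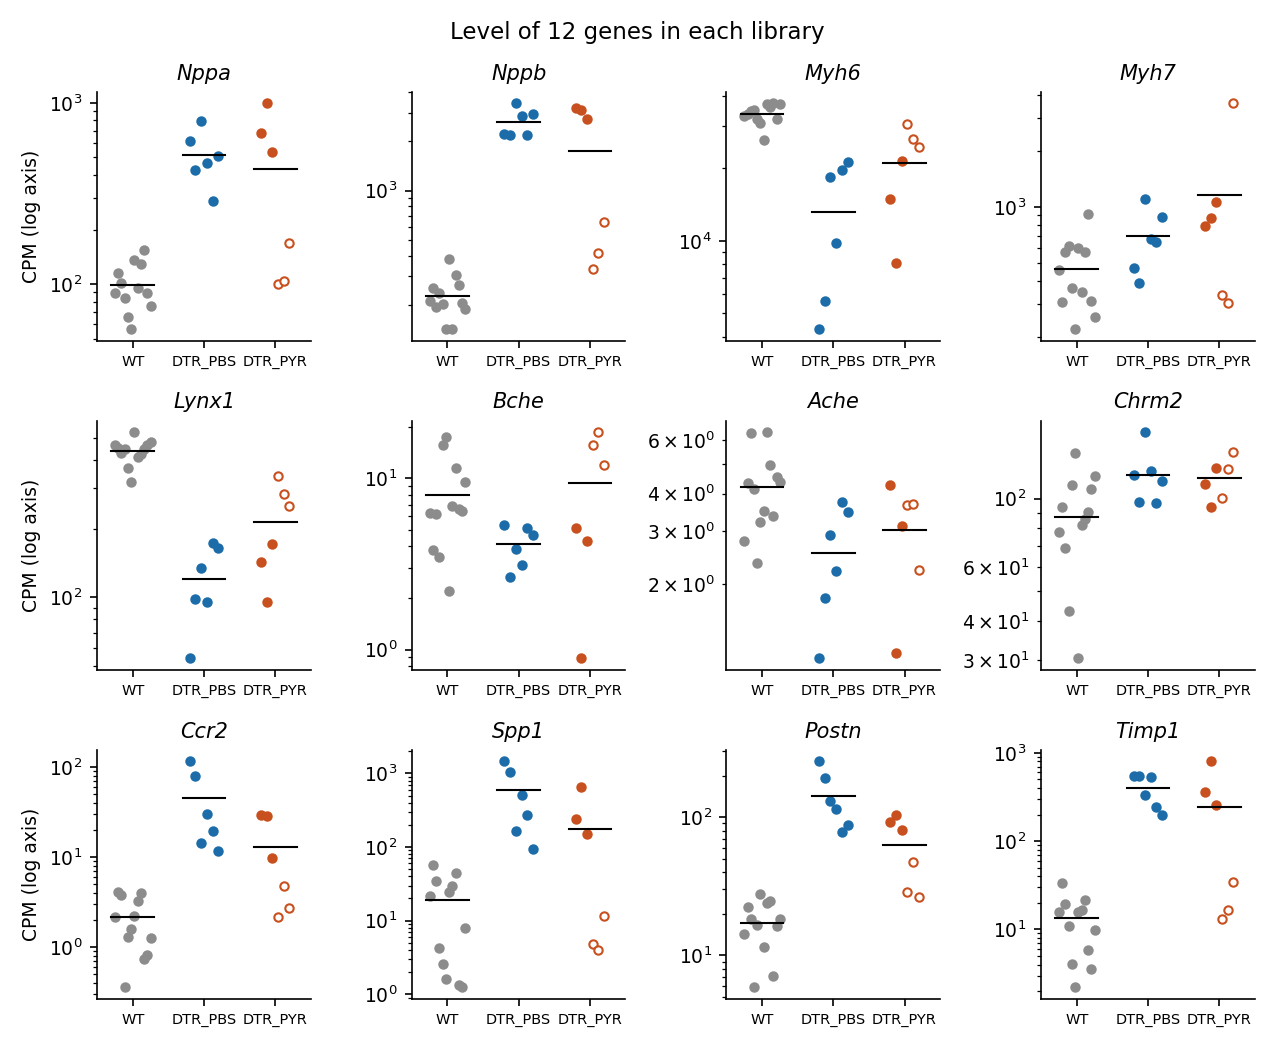
CPM on log axes for 12 genes in the 12 WT libraries (grey), 6 DTR_PBS libraries (blue) and 6 DTR_PYR libraries (orange; open for DTR_PYR 4 to 6), with the group mean as a line. Open points fall at or near the WT points for Nppb, Ccr2, Spp1 and Timp1, while the Chrm2 values of both injured groups lie together between 94 and 163.9 CPM.

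Energy metabolism genes were divided in the same way. All 25 fatty acid oxidation genes had a positive log2 difference, 14 of them with an unadjusted p under 0.05 (6.6% of all genes), and their median of 0.68 became 0.04 without hearts 4 to 6. Cpt1b, the muscle enzyme that admits fatty acids to mitochondria, stood at 28.8, 24.8 and 30.9 CPM in hearts 4 to 6, at 16.3, 7.69 and 22.6 CPM in hearts 1 to 3 and at 4.67 to 18.4 CPM in DTR_PBS. Hearts 4 to 6 were above every vehicle heart, as was heart 3. Acadl, the long-chain acyl-CoA dehydrogenase, had a log2 difference of 0.68 (0.14 to 1.21), and 0.21 without hearts 4 to 6. Lpl, the lipase that frees fatty acids from blood lipoproteins, had 0.69 (0.03 to 1.36), and 0.09 without them. Acot1, an acyl-CoA thioesterase, had 1.91 (0.93 to 2.89), and 1.004 without them. It stood at 3.38 to 22.4 CPM in DTR_PYR and 1.33 to 3.75 CPM in DTR_PBS, so the groups overlapped in heart 1 alone; Acot1 has close paralogs, which makes its counts uncertain.

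All 44 nuclear-encoded respiratory chain genes had a positive difference, 3 with an unadjusted p under 0.05, a share near the 6.6% of all genes, with a median of 0.44, and 0.07 without hearts 4 to 6. Ndufb9, of complex I, had 0.84 (0.22 to 1.47), and 0.42 without them. All 18 citric acid cycle genes were positive too, with a median of 0.48, and 0.10 without them. The 12 tested genes of the mitochondrial genome had the highest median of the 39 lists, 1.002, which was -0.22 without hearts 4 to 6, 1.33 within the V libraries and -0.42 within the U libraries. mt-Co1, of cytochrome oxidase, stood at 31710, 39615 and 20778 CPM in hearts 4 to 6, at 8554, 6263 and 8375 CPM in hearts 1 to 3 and at 8216 to 13015 CPM in DTR_PBS. The WT libraries alone ran from 12275 to 58198 CPM, a range that takes in hearts 4 to 6. Mitochondrial genes have near-identical copies in the nuclear genome, so these counts are uncertain. Of 22 glycolysis genes 15 were positive, with a median of 0.29, and 0.12 without hearts 4 to 6; Pfkl and Pfkm, the liver and muscle forms of phosphofructokinase, had 0.65 (0.17 to 1.14) and 0.77 (0.02 to 1.52), and 0.19 and 0.14 without them.

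Most cholinergic genes, the pathway the drug acts on, were too low to test: 12 of 33 passed the filter. Chat, the enzyme that makes acetylcholine, had 0 reads in the 12 libraries, as did Chrm5, Chrna3, Chrna6 and Chrna9, subunits or types of its receptors. Chrna7, the nicotinic subunit known from immune cells, had 5 reads in DTR_PBS and 2 in DTR_PYR, summed over the libraries. Counts this low show that no difference was detectable at this depth, not that the transcripts are absent from cells.

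Of the drug's target enzymes, Ache, acetylcholinesterase (ENSMUSG00000023328, chromosome 5, 137287519 to 137294466), stood at 1.14, 2.57 and 3.75 CPM (lowest, median and highest) in DTR_PBS and at 1.18, 3.39 and 4.26 CPM in DTR_PYR. The ranges overlapped almost wholly, with a log2 difference of 0.31 (-0.46 to 1.08), and 0.25 without hearts 4 to 6. Bche, butyrylcholinesterase (ENSMUSG00000027792, chromosome 3, 73635808 to 73708415), stood at 15.5, 18.6 and 12 CPM in hearts 4 to 6, at 5.15, 0.887 and 4.29 CPM in hearts 1 to 3 and at 2.66 to 5.34 CPM in DTR_PBS. Hearts 4 to 6 were above every vehicle heart, and the log2 difference of 1.22 (0.20 to 2.24) became -0.23 without them. Colq, which anchors acetylcholinesterase to the matrix, had 0.85 (-0.17 to 1.88), and 0.08 without them.

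Chrm2, the M2 receptor of heart muscle (ENSMUSG00000045613, chromosome 6, 36388084 to 36528414), lay at 96.9, 116.5 and 163.9 CPM (lowest, median and highest) in DTR_PBS and at 94, 118.4 and 141.8 CPM in DTR_PYR. Here hearts 4 to 6 did not stand apart from hearts 1 to 3, and the log2 difference was -0.03 with an interval of -0.37 to 0.31, and -0.09 without hearts 4 to 6. Lynx1, a membrane-anchored protein that dampens nicotinic receptors (ENSMUSG00000022594, chromosome 15, 74747852 to 74753046), stood at 339, 282.4 and 250 CPM in hearts 4 to 6, at 142.2, 95.2 and 171.8 CPM in hearts 1 to 3 and at 53.97 to 173.6 CPM in DTR_PBS. The WT hearts held 319 to 528.1 CPM, so hearts 4 to 6 were above the vehicle range and 1 of them inside the uninjured one; the log2 difference was 0.83 (0.15 to 1.51), and 0.20 without the 3 hearts. Chrna2, a nicotinic subunit, was low throughout, at 3.99, 2.49 and 5.28 CPM in hearts 4 to 6, 0.294, 0.296 and 0.779 CPM in hearts 1 to 3 and 0.364 to 1.77 CPM in DTR_PBS. Slc44a2, a choline transporter, had 0.30 (0.04 to 0.56), and 0.28 without hearts 4 to 6. It was picked after its values were seen, so the second value is no separate support for a difference. The median of the 12 cholinergic genes was 0.53, -0.0043 without hearts 4 to 6, 0.60 within the V libraries and -0.03 within the U libraries.

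Behind the M2 receptor, the 12 tested genes of muscarinic signalling had a median of -0.12, and -0.04 without hearts 4 to 6, with 6 positive and 6 negative. Gnai2 and Gnai3 encode inhibitory G protein subunits, and had 0.07 (-0.31 to 0.45) and -0.90 (-1.59 to -0.22). Gnai3 stood at 10.1 to 20.7 CPM in DTR_PYR and 13.7 to 57.95 CPM in DTR_PBS, and without hearts 4 to 6 its difference was -0.77 and that of Gnai2 0.29. Kcnj3 and Kcnj5 form the potassium channel that M2 receptors open, and had 1.51 (0.28 to 2.75) and 0.65 (0.11 to 1.18), against -0.47 and 0.21 without hearts 4 to 6. Kcnj3 stood at 30.5, 38.1 and 17.9 CPM in hearts 4 to 6, at 2.79, 2.96 and 7.79 CPM in hearts 1 to 3 and at 2.70 to 9.07 CPM in DTR_PBS. Of 12 tested adrenergic genes, 10 were positive, with a median of 0.44, and 0.15 without hearts 4 to 6; Maob, a monoamine oxidase, had 1.08 (0.29 to 1.87), and 0.10 without them. Of 14 tested genes of Schwann cells and nerves, 7 were positive and 7 negative, with a median of -0.17, and -0.06 without hearts 4 to 6.

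Myeloid genes had lower means under the drug, and hearts 4 to 6 held the low values. All 19 tested macrophage genes had a negative log2 difference, 1 of them with an unadjusted p under 0.05, a share near the 5.39% of all genes in that direction. Their median was -0.72, and -0.01 without hearts 4 to 6. Leaving out 1 library gave medians from -1.51 without DTR_PYR 2 to -0.41 without DTR_PBS 1. Within the V libraries the median was -1.67 and within the U libraries -0.36. The macrophage score was 2.18, 3.35 and 1.57 in hearts 1 to 3 and 0.24, 0.30 and 0.31 in hearts 4 to 6, with 1.45 to 3.50 in DTR_PBS and -0.58 to 0.45 in WT. Lyz2, lysozyme of myeloid cells, had -0.95 (-2.03 to 0.14), and -0.26 without hearts 4 to 6. Cd53, a tetraspanin of leukocytes, had -1.71 (-3.06 to -0.37), and -0.99 without them. Of 16 genes of recruited monocytes 15 were negative, with a median of -1.21, and -0.32 without them. That median was -2.09 without DTR_PYR 2 and -0.65 without DTR_PBS 1. Ccr2, the chemokine receptor that brings monocytes from the blood (chromosome 9, 124101950 to 124113557), stood at 29.4, 28.7 and 9.74 CPM in hearts 1 to 3 and at 2.16, 4.79 and 2.72 CPM in hearts 4 to 6. It lay at 11.6, 24.5 and 115.4 CPM (lowest, median and highest) in DTR_PBS and at 0.356 to 4.07 CPM in WT. The vehicle hearts differed widely among themselves, hearts 1 and 2 lay within their range, and heart 3 was just below it. The log2 difference of Ccr2 was -1.85 (-3.41 to -0.30), and -0.98 without hearts 4 to 6. Spp1, osteopontin, a secreted protein of macrophages in repair, ranged over 93.6 to 1463 CPM in DTR_PBS and 4.04 to 645.3 CPM in DTR_PYR, with a log2 difference of -1.75 (-4.02 to 0.52), and -0.77 without hearts 4 to 6.

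Resident cardiac macrophage genes were less divided. Their scores were 1.07, 1.20 and 0.80 in hearts 1 to 3 and 0.62, 0.69 and 0.44 in hearts 4 to 6, with 0.65 to 1.42 in DTR_PBS and -0.21 to 0.27 in WT, so that 0 of the 6 drug-treated hearts lay in the WT range. F13a1, coagulation factor XIII of tissue macrophages, stood at 45.4, 52.6 and 36.2 CPM in hearts 4 to 6, against 16.4 to 37.1 CPM in WT and 49.6 to 144.9 CPM in DTR_PBS. F13a1 and Mrc1, the mannose receptor, had log2 differences of -0.78 (-1.38 to -0.18) and -1.004 (-1.83 to -0.17), and -0.55 and -0.55 without hearts 4 to 6. Timd4, a receptor for dying cells picked after its values were seen, went the other way with 1.10 (0.13 to 2.08), and 0.75 without hearts 4 to 6, at 0.591 to 3.24 CPM in DTR_PYR and 0.310 to 1.62 CPM in DTR_PBS. Gas6, a ligand that bridges dying cells to macrophages, had 0.20 (-0.13 to 0.53), and 0.15 without them.

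Many neutrophil and lymphocyte genes were too low to test. The 8 of 12 neutrophil genes tested had a median of -0.78, and -0.05 without hearts 4 to 6; S100a8, a calcium-binding alarm protein, was at 0 to 1.32 CPM in DTR_PYR and 0 to 4.15 CPM in DTR_PBS. Lcn2, a lipocalin of neutrophils and stressed tissue, stood at 5.72, 4.71 and 56.5 CPM in hearts 4 to 6 and at 13.3 to 76.6 CPM in DTR_PBS, so heart 6 was again apart from hearts 4 and 5. T and NK cell genes had a median of -0.23 over 8 of 16, and of 0.73 without hearts 4 to 6; it was 0.04 without DTR_PYR 4. Cd4, the coreceptor of helper T cells, was at 1.07 to 2.42 CPM in DTR_PBS and 0.432 to 2.21 CPM in DTR_PYR. Ighm, the heavy chain of B cell antibodies, had 0.69 (0.14 to 1.24), and 0.75 without hearts 4 to 6. The B cell list, of which 6 of 12 genes were tested, had a median of -0.39, and 0.12 without them. Among 16 antigen presentation genes the median was -0.06, and 0.37 without hearts 4 to 6. Cd74, which guides class II molecules, stood at 640.6, 644.1 and 385.2 CPM in hearts 1 to 3, at 169.3, 122.9 and 159.1 CPM in hearts 4 to 6 and at 255.5 to 452.6 CPM in DTR_PBS. Hearts 1 and 2 thus lay above the vehicle range and hearts 4 to 6 below it.

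Of 30 tested cytokine and chemokine genes 26 were negative, 4 of them with an unadjusted p under 0.05 (5.39% of all genes). The median was -0.97, -0.001 without hearts 4 to 6 and -1.55 without DTR_PYR 2. Il1b, the interleukin 1 beta gene, stood at 5.88, 10.6 and 3.51 CPM in hearts 1 to 3, at 0.540, 0.729 and 0.640 CPM in hearts 4 to 6 and at 5.40 to 12.8 CPM in DTR_PBS. Il6, the interleukin 6 gene, stood at 2.06, 1.48 and 5.45 CPM in hearts 1 to 3, at 0.108, 0.0280 and 0.160 CPM in hearts 4 to 6 and at 0.972 to 5.44 CPM in DTR_PBS. Both genes were inside the WT range in all 3 of hearts 4 to 6. Tnf, the tumour necrosis factor gene, had a log2 difference of -0.27 (-1.60 to 1.07), and 0.67 without hearts 4 to 6. Il33, an alarm cytokine of stromal cells, had -1.15 (-2.19 to -0.11), and -0.35 without them. Cxcl12, a chemokine of stromal and endothelial cells and the list's most abundant by count, had 0.21 (-0.12 to 0.54), and 0.19 without them. The 25 interferon-stimulated genes had a median of 0.08, and 0.32 without hearts 4 to 6.

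Matrix genes were negative in 41 of 44, 5 of them with an unadjusted p under 0.05 (5.39% of all genes). The median was -0.48, and 0.0021 without hearts 4 to 6, and with 1 library left out it ran from -0.97 without DTR_PYR 2 to -0.32 without DTR_PYR 4. Postn, periostin of activated fibroblasts (ENSMUSG00000027750, chromosome 3, 54361109 to 54391037), lay at 77.7, 122.8 and 253.8 CPM (lowest, median and highest) in DTR_PBS. It stood at 92.9, 103.2 and 81.02 CPM in hearts 1 to 3 and at 28.8, 47.03 and 26.2 CPM in hearts 4 to 6. Hearts 1 to 3 were in the lower part of the vehicle range, and 5 of the 6 drug-treated hearts were above the WT range of 5.84 to 27.7 CPM. The log2 difference of Postn was -1.18 (-1.998 to -0.37), and -0.62 without hearts 4 to 6. Vcan, the proteoglycan versican, had -1.21 (-2.09 to -0.34), and -0.67 without them, with all 6 drug-treated hearts above the WT range. Col1a1, of type I collagen, had -0.49 (-1.62 to 0.63), and 0.26 without them. Timp1, an inhibitor of metalloproteinases, stood at 357.1, 802.8 and 255.1 CPM in hearts 1 to 3, at 13.2, 16.8 and 34.9 CPM in hearts 4 to 6 and at 197.8 to 549.8 CPM in DTR_PBS. Heart 2 was above every vehicle heart for Timp1 and Col1a1, and hearts 4 to 6 were below every one. Resting fibroblast genes had a median of 0.03, and -0.09 without hearts 4 to 6, over 16, with scores of -0.15 to 0.12 in DTR_PYR and -0.09 to 0.06 in DTR_PBS.

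All 34 cell cycle genes had a negative difference, 10 with an unadjusted p under 0.05 where 5.39% of all genes had one in that direction, with a median of -1.01, -0.32 without hearts 4 to 6 and -1.71 without DTR_PYR 2. Mki67, a marker of dividing cells, lay at 17.5, 33.7 and 107.1 CPM (lowest, median and highest) in DTR_PBS. It stood at 28.8, 42.6 and 15.2 CPM in hearts 1 to 3 and at 7.23, 8.66 and 10.6 CPM in hearts 4 to 6. Hearts 1 and 2 were inside the vehicle range and the other 4 below it. Cdk1, the kinase that starts mitosis, had -1.75 (-3.08 to -0.42), and -0.99 without hearts 4 to 6; Cenpe, a motor of the kinetochore, had -1.67 (-2.88 to -0.47), and -0.89 without them. The negative median of this list was thus smaller but kept its sign in hearts 1 to 3.

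The p53, endoplasmic reticulum stress and immediate early lists also had negative medians. Among 14 p53 targets 12 were negative, with a median of -0.48, and -0.05 without hearts 4 to 6. Cdkn1a, the cell cycle inhibitor p21, stood at 477.3, 694.3 and 475.6 CPM in hearts 1 to 3, at 33.7, 48.9 and 131.9 CPM in hearts 4 to 6 and at 371 to 795.4 CPM in DTR_PBS. Genes of the integrated and endoplasmic reticulum stress responses had a median of -0.50 over 23, and -0.15 without hearts 4 to 6. Slc7a11, the cystine transporter, was at 0.160 to 1.30 CPM in DTR_PYR and 1.19 to 4.89 CPM in DTR_PBS, and its log2 difference of -1.63 (-2.62 to -0.64) was -1.57 without hearts 4 to 6. In hearts 1 to 3 Slc7a11 stood at 1.18, 1.18 and 0.39 CPM, in libraries of 5969640, 2805284 and 2387030 counts, so few reads lie behind these values. The gene was also named for a small p in the same libraries. The similar difference in hearts 1 to 3 alone is thus no separate support. Among 19 immediate early genes, which answer quickly to signals, 16 were negative, with a median of -0.53, and 0.06 without hearts 4 to 6. Fosb, a partner in the AP-1 transcription factor, had -1.52 (-2.56 to -0.49), and -1.25 without them. The heat shock list had a median of 0.09, the glucocorticoid-responsive list -0.08 and the circadian clock list 0.12, and without hearts 4 to 6 these were 0.15, 0.04 and -0.07. Each of the 3 medians also turned its sign when 1 library was left out, to -0.03 without DTR_PYR 3, 0.06 without DTR_PYR 1 and -0.06 without DTR_PYR 3 in that order. The small heat shock median hid a division of the hearts. Heat shock scores were 0.78 to 0.79 in hearts 1 to 3, above the DTR_PBS range of 0.57 to 0.75. In hearts 4 to 6 they were 0.08 to 0.23, below that range, and in WT -0.32 to 0.13. Nr1d1, a repressor of the clock, stood at 145.4 to 1523 CPM in DTR_PBS and 197.4 to 447.9 CPM in DTR_PYR, so the drug-treated hearts all lay within the wide vehicle range.

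Vessel, blood and neighbouring tissue genes describe what else the apex samples held. The 19 endothelial genes had a median of 0.18, and 0.02 without hearts 4 to 6; Tie1, a receptor kinase of the vessel lining, had 0.48 (0.10 to 0.86), and 0.11 without them. The 14 smooth muscle and pericyte genes had a median of 0.33, and 0.27 without them. All 8 tested red cell and platelet genes were negative, with a median of -0.78, -0.69 without hearts 4 to 6 and -0.46 without DTR_PBS 5. Their summed level was 61.8 to 91.1 CPM in DTR_PYR, inside the DTR_PBS range of 22.7 to 216 CPM and the WT range of 36.98 to 746.8 CPM. Mesothelial genes summed to 4.64 to 52.6 CPM in DTR_PYR and 7.89 to 41.6 CPM in DTR_PBS. Of 9 such genes 6 were tested, with a median of -0.54, and 0.54 without hearts 4 to 6. Their scores were -2.22, -2.74 and -2.91 in hearts 4 to 6 and -1.23 to 1.33 in hearts 1 to 3. DTR_PBS scores ran from -1.58 to 1.04 and WT scores from -2.50 to 1.44. Hearts 4 to 6 were thus below every vehicle heart, and hearts 5 and 6 also below every WT heart. In the atrial list Bmp10 had 0 reads in the 12 libraries, and in the skeletal muscle list Tnnc2 had 0. Tnnt3, a fast skeletal troponin, was at 0 to 0.320 CPM in DTR_PYR and 0.625 to 2.66 CPM in DTR_PBS. Plin4, a lipid droplet protein that muscle also makes, was the 1 tested member of 8 adipocyte genes. The part of other tissue in the results above was not tested.

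**Figure D4:**
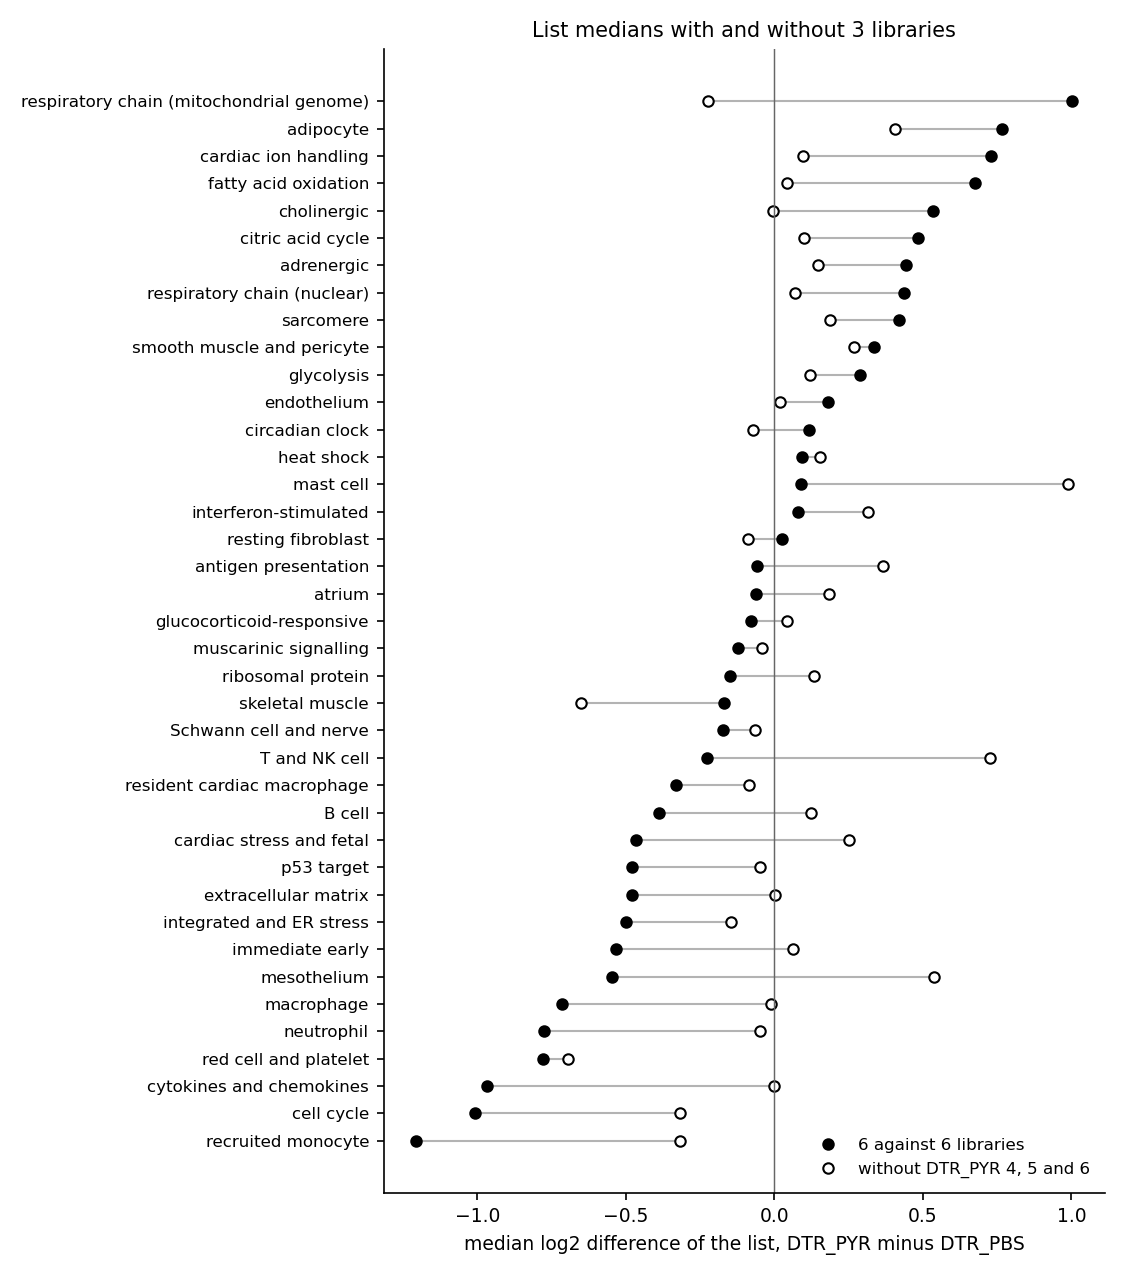
Median log2 difference, DTR_PYR minus DTR_PBS, of the 39 gene lists with all 12 libraries (filled) and without DTR_PYR 4, 5 and 6 (open). Most open points lie nearer 0, as for fatty acid oxidation (0.68 and 0.04), while red cell and platelet genes kept -0.78 and -0.69, and mast cell genes, 4 in number, moved away from 0 (0.09 and 0.99).

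A small number of genes separated the 2 groups completely. Of all tested genes 25 (0.172%) had every DTR_PYR library above every DTR_PBS library and 29 (0.2%) had every one below. Of these, 18 and 16 had at least 5 CPM, and none was called. For a single gene, complete separation in either direction has p = 0.00217 (exact two-sided permutation test over 924 arrangements). Among 14523 genes, chance alone thus gives some that separate completely. Whether the 25 and 29 genes exceed that level was not tested. Eef2k encodes the kinase that restrains elongation factor 2 and with it protein synthesis (ENSMUSG00000035064, chromosome 7, 120842831 to 120907219). It lay at 23.9, 34.4 and 38.03 CPM (lowest, median and highest) in DTR_PBS and at 44.1, 41.1, 43.2, 63.9, 56.8 and 61.5 CPM in hearts 1 to 6. Every drug-treated heart was above every vehicle heart, and 1 reached the WT range of 62.4 to 105.6 CPM. The log2 difference of Eef2k was 0.71 (0.35 to 1.06; edgeR adjusted p = 0.410), and 0.44 without hearts 4 to 6.

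Scarf1, a scavenger receptor first known from endothelium (ENSMUSG00000038188, chromosome 11, 75513540 to 75526582), lay at 10.1, 13.9 and 18.9 CPM in DTR_PBS and at 21.9, 23.4, 23.4, 30.97, 19.3 and 26.2 CPM in hearts 1 to 6. For Scarf1 hearts 1 to 3 lay among hearts 4 to 6, with a log2 difference of 0.78 (0.37 to 1.19), and 0.71 without the latter. Slc6a8, the creatine transporter (chromosome X, 73673150 to 73682502), stood at 133.9 to 181.4 CPM in DTR_PBS and at 181.8 to 264.8 CPM in DTR_PYR, with 0.50 (0.21 to 0.79), and 0.42 without hearts 4 to 6. Sms, spermine synthase of polyamine metabolism (chromosome X, 157443855 to 157492287), had 0.52 (0.21 to 0.82), and 0.40 without them. Psme1, an interferon-inducible activator of the proteasome picked after its values were seen, stood at 85.3 to 98.6 CPM against 50.7 to 79.5 CPM in DTR_PBS, with 0.46, and 0.46 without hearts 4 to 6. Dok4, an adaptor of receptor kinases, and Foxo4, a transcription factor restrained by insulin signalling, were also among the 8 smallest p on the higher side but overlapped, with 0.93 (0.39 to 1.47) and 0.82 (0.33 to 1.31), and 0.43 and 0.42 without hearts 4 to 6.

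On the lower side, Enc1, an actin-binding protein and adaptor of a ubiquitin ligase (ENSMUSG00000041773, chromosome 13, 97241105 to 97253039), lay at 25.1, 27.7 and 31.7 CPM (lowest, median and highest) in DTR_PBS and at 20.4, 19.5, 19.9, 13.3, 12.1 and 13.9 CPM in hearts 1 to 6. Hearts 4 to 6 were inside the WT range of 8.05 to 14.5 CPM and hearts 1 to 3 between the ranges. The log2 difference of Enc1 was -0.77 (-1.14 to -0.40; edgeR adjusted p = 0.410), and -0.47 without hearts 4 to 6. Rnf2, the ubiquitin ligase of Polycomb complex 1 (ENSMUSG00000026484, chromosome 1, 151458004 to 151500955), lay at 18.3, 22.2 and 25.6 CPM in DTR_PBS and at 17.5, 10.6, 10.9, 12.6, 14.4 and 12 CPM in hearts 1 to 6. It had -0.75 (-1.12 to -0.38), and -0.72 without hearts 4 to 6. Mier3, a nuclear protein that binds histone deacetylases (chromosome 13, 111686178 to 111718596), stood at 8.57 to 12.2 CPM in DTR_PYR against 13.5 to 19.5 CPM in DTR_PBS, with -0.65 (-0.99 to -0.30), and -0.70 without hearts 4 to 6. Skil, a repressor of TGF-beta signalling, and Adpgk, an ADP-dependent glucokinase, overlapped, with -0.75 (-1.18 to -0.32) and -0.77 (-1.20 to -0.34), and -0.61 and -0.51 without hearts 4 to 6. In Rnf2, Mier3, Scarf1 and Slc6a8 the difference was nearly as large, or larger, in hearts 1 to 3 alone. These genes had no overlap between the groups and were named for small p in the same libraries. The sign in hearts 1 to 3 was thus fixed by the choice, and the values are no separate support for a difference. Gm22513, Gm24265 and Vaultrc5, the last a vault RNA, made up the rest of the 8 smallest p on the lower side; Vaultrc5 was at 2.27 to 22.5 CPM in DTR_PBS and 0 to 3.24 CPM in DTR_PYR.

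**Figure D5:**
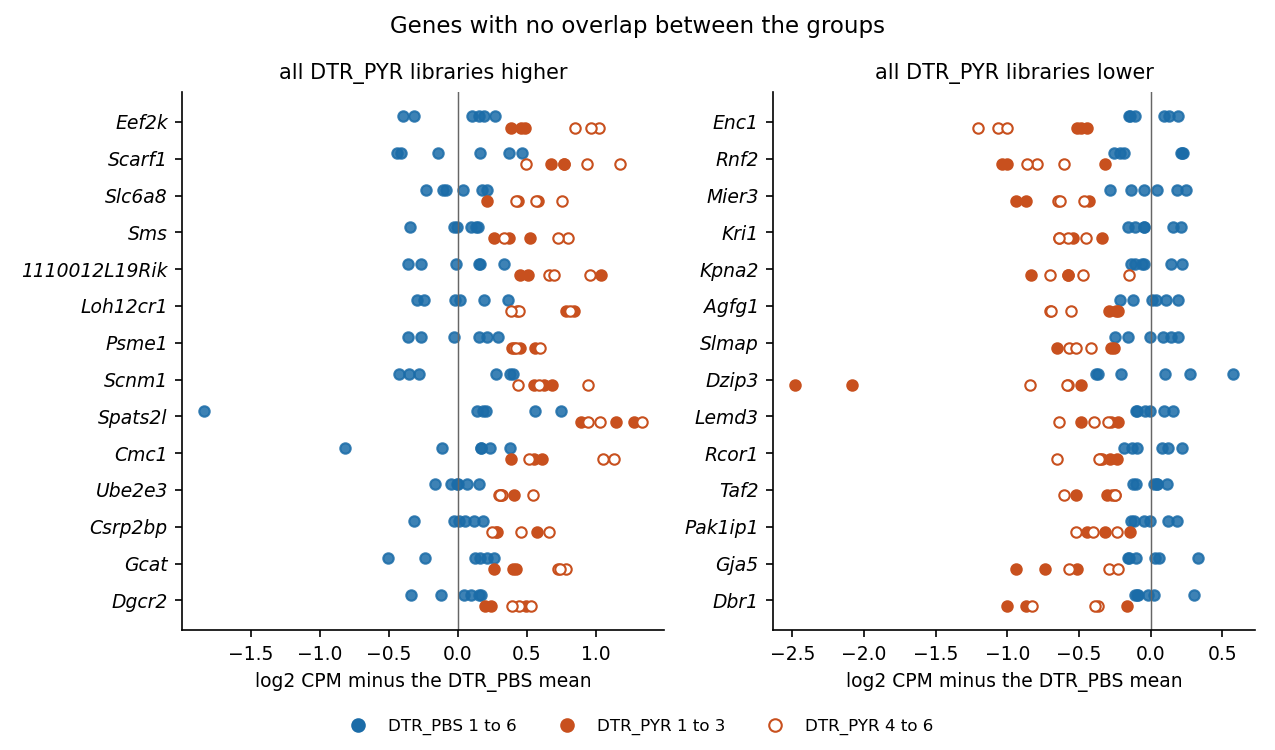
Log2 CPM of each library minus the DTR_PBS mean, for the 14 genes with the smallest p in each direction among genes of at least 5 CPM with no overlap between the groups. By the choice of genes, filled orange points (DTR_PYR 1 to 3) and open ones (DTR_PYR 4 to 6) lie on the same side of the blue DTR_PBS points. They are mixed for Scarf1 and Mier3 and apart for Enc1 and Eef2k.

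How much hearts of 1 group differed among themselves depended on which drug-treated hearts were counted. Of the 10268 genes of at least 5 CPM, 59.9% had a larger SD of log2 CPM in DTR_PYR, and the median SD was 0.38 in DTR_PYR, 0.34 in DTR_PBS, 0.27 in WT_PBS and 0.25 in WT_PYR. The SD was at least 2 times larger in DTR_PYR for 1952 genes and in DTR_PBS for 715. With heart 2 left out and the other 5 drug-treated hearts kept, hearts 4 to 6 among them, the share of 59.9% became 50.1%. Among hearts 1 to 3 alone it was 42.5%, but this sets an SD of 3 libraries against an SD of 6. It is therefore not comparable with the 59.9%, and no smaller spread in hearts 1 to 3 is read from it. All 19 stress genes, all 30 cytokine genes and 41 of 44 matrix genes varied more in DTR_PYR, against 3 of 23 sarcomere genes. For sarcomere genes the vehicle hearts were the more spread, with scores from -1.51 to -0.22 against -0.98 to -0.02 in DTR_PYR.

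Whether the drug difference depended on the injury was tested as an interaction, the difference DTR_PYR minus DTR_PBS less the difference WT_PYR minus WT_PBS, over the 24 libraries. Of 15456 genes edgeR called 0 (0%), 1231 had an unadjusted p under 0.05, and the smallest adjusted p was 0.429. DESeq2 called 9 genes: mt-Ty, mt-Tc, mt-Ta, mt-Co3, Tnfrsf23, Panx1, Kcnv2, Acot1 and BC021891. The first 3 are mitochondrial transfer RNAs, which libraries of polyadenylated RNA capture poorly. For mt-Tc the means were 6.46 and 9.94 CPM in DTR_PBS and DTR_PYR and 23.2 and 6.32 CPM in WT_PBS and WT_PYR, so its larger difference lay in the uninjured pair. Kcnv2 had means of 0.682 and 3.71 CPM in DTR_PBS and DTR_PYR and of 12.5 and 9.37 CPM in WT_PBS and WT_PYR, an interaction of 3.16 on the log2 scale (edgeR adjusted p = 0.429). Acot1 had 2.36 and 8.83 CPM against 12.02 and 9.33 CPM, an interaction of 2.27. In the injured pair both genes had the higher mean under the drug, and in the uninjured pair the lower. Without hearts 4 to 6 the log2 difference in the injured pair was 0.01 for Kcnv2 and 1.004 for Acot1. Kcnv2 stood at 0.588, 0.591 and 0.779 CPM in hearts 1 to 3 and at 6.80, 7.40 and 6.08 CPM in hearts 4 to 6. Interaction values are given with all 24 libraries only. Panx1, a channel that releases ATP and a gene outside the naming rule, had means of 6.33 and 2.33 CPM in the injured pair and 1.25 and 1.74 CPM in the uninjured pair (DESeq2 adjusted p = 0.0414, edgeR 0.459).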

How the data were processed

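RNA of 24 hearts was sequenced, and the 12 libraries of DTR_PYR and DTR_PBS are compared. The authors deposited raw read counts per Ensembl gene for 46078 genes, and these counts were used as they stand. Per the submitters' processing notes the tools were Bowtie2, TopHat, TopHat2 2.1.1, HTSeq, DESeq and edgeR, with the mouse build GRCm38, with no roles stated and no annotation release. Per the labels' protocols the libraries were single-end and not strand-specific, so a gene and its antisense partner cannot be told apart. The deposited filtered and depth-normalized tables were not used here. Of 197 genes without a symbol, 193 were named by gene ID from a GENCODE annotation of the same build, and loci are those of the deposited table, with starts counted from 1.

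Genes above 0.5 CPM in at least 6 of the 12 libraries were fitted with edgeR 4.0.16 in R 4.3.3 (glmQLFit and glmQLFTest, TMM scaling, two-sided, Benjamini-Hochberg adjustment, threshold 0.05). The interaction used the 24 libraries. Printed CPM are TMM-scaled over the 24 libraries, and log2 CPM used a prior count of 2. DESeq2 1.42.0 and limma 3.58.1 were alternatives, beside other scalings and filters, fits with the tag letter or within it, and fits without single libraries or without DTR_PYR 4, 5 and 6. Only the edgeR fits were tried on simulated counts, which had the same dispersion in every gene and no division of hearts within a group. That trial cannot show how the fits behave on groups as divided as DTR_PYR. Replicate numbers follow accession order and pair no samples.

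The naming rule took, among genes averaging 5 CPM or more, the 8 smallest p in each direction and the 5 smallest interaction p; in each list the 2 smallest p and the highest mean; and a set of 16 stress, cholinergic, inflammatory and matrix genes. Hbegf, Kcnj3, Kcnj5, Gja5, Slc44a2, Chrna2, Colq, Myl7, Timd4, Psme1, Panx1 and the genes with 0 reads were picked outside it, after their values were seen. The comparison, the lists and the rule were chosen with earlier results of these data known, so no list is tested.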

Additional observations from a re-analysis of the deposited data

Results flagged for a closer look

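A library was picked out where the gap between it and the nearest of the other 5 of its group took more than 0.625 of the group's range, Dixon's 95% critical value for 6 samples. For genes the gap and range were taken on log2 CPM with a prior count of 2, though CPM are printed below. The gap of a library at 0 CPM therefore depends on that prior count. List scores and library measures were taken on their own scale. Of 366 groups of 6 looked at, 15 had such a library, and chance alone gives about 1 in 20.

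For single genes, DTR_PBS 4 stood at 0 CPM for mt-Co3 (the other 5 at 0.667 to 1.22 CPM) and at 0 CPM for Ddc, the enzyme that makes dopamine (1.63 to 2.62 CPM); it has the smallest total count of the 12. Gnai2 in DTR_PBS 4 was at 472.5 CPM, above the other 5 at 394.9 to 413.3 CPM. DTR_PBS 2 held the lowest Sms, 17.5 CPM against 21.8 to 24.5 CPM, and the lowest Ighm, 3.28 CPM against 4.87 to 6.05 CPM. The lowest Tnf of DTR_PBS was 1.499 CPM in DTR_PBS 5, against 2.79 to 3.99 CPM. mt-Ty in DTR_PBS 1 was at 10.9 CPM, against 4.86 to 6.57 CPM. In the drug group, Cdk1 was at 9.75 CPM in DTR_PYR 2, against 1.12 to 2.35 CPM, so this heart alone carried the upper end of that gene. Hspa5, the main chaperone of the endoplasmic reticulum, was at 501.7 CPM in DTR_PYR 5, against 370.8 to 397.0 CPM.

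For list scores, DTR_PBS 1 had the lowest value for circadian clock genes, -0.66 against 0.17 to 0.59, and for resting fibroblast genes, -0.091 against 0.00 to 0.06. Schwann cell and nerve genes scored 0.93 in DTR_PBS 4, against 0.39 to 0.56, and ribosomal protein genes 0.36 in DTR_PBS 5, against 0.49 to 0.54. Total counts were 36318026 in DTR_PBS 1, against 1877914 to 12434794, and 37842245 in DTR_PYR 5, against 2387030 to 9661048. All of these are values within 1 group, and their causes were not tested.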

How the results depend on the processing

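0 genes were called for the drug in injured hearts under each of 26 alternative settings, of which 23 used edgeR, 1 DESeq2 and 2 limma voom. Genes at an unadjusted p under 0.05 numbered 820 without DTR_PBS 2 and 3841 without DTR_PYR 2, the ends of the range when 1 library was left out. For the interaction, DESeq2 called 9 genes where edgeR called 0; the cause was not tested. The share of genes with a larger SD in DTR_PYR, 59.9%, was 58.3% with total-count scaling. It was 50.1% to 69.0% when 1 library was left out, the ends without DTR_PYR 2 and DTR_PBS 1. Without DTR_PYR 4, 5 and 6 it was 42.5%, which sets an SD of 3 libraries against an SD of 6 and is not comparable. With total-count scaling the median log2 difference of all tested genes was -0.15. Of 141 named genes 104 kept the sign of the difference in every alternative and 37 did not, 25 of them without DTR_PYR 4, 5 and 6, a setting chosen after seeing the data. Of 39 list medians 20 kept their sign throughout, 9 took the other sign within the U libraries, 2 within the V libraries and 11 when 1 library was left out. No paired analysis was possible because the replicate numbers follow accession order and every animal tag is distinct. The smallest library, of 1877914 counts, and the wide spread between hearts limit what low genes can show.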
